A study of Mus musculus with 20 samples.

Results

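The genes of fatty acid oxidation, the peroxisome and lipid storage were examined in the injured mouse kidney. Members were taken by gene symbol, from the families of acyl-CoA dehydrogenases and oxidases (Acad, Acox), thiolases (Acaa, Acat), thioesterases (Acot), acyl-CoA synthetases (Acsl, Acsm), hydratases, isomerases and hydroxyacyl-CoA dehydrogenases (Ech, Eci, Hadh, Ehhadh), electron transfer flavoproteins (Etf), carnitine acyltransferases (Cpt, Crat, Crot), peroxins (Pex), fatty acid binding proteins (Fabp) and perilipins (Plin). The symbol rule found 61 of the 6025 genes in the deposited table. Etf1 was caught by its letters alone, since it encodes a factor that ends translation, and its values are given in a paragraph of their own, though the counts and medians over the 61 members include it. Of 27 textbook members of these families, 17 were in the table, and the other 10 were not analysed here.

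RNA was sequenced from the renal cortex of wild-type C57BL/6 mice aged 8 weeks, 1 library a mouse. There were 8 control mice, 4 taken 24 h after ischemia-reperfusion injury (IRI), 4 taken 24 h after rhabdomyolysis and 4 taken 72 h after cisplatin, and the series calls them biological replicates. In IRI the blood supply of the kidney is stopped and restored, rhabdomyolysis releases the contents of broken muscle into the blood, and cisplatin is a platinum drug that damages DNA and is toxic to tubules. The series mentions mock and vehicle treatment for the controls while every control is labelled mock, and these kinds were not told apart. The labels give no ischemia time, no dose and no agent for rhabdomyolysis. The library numbers fall into 2 ranges, so IRI was compared with controls 1 to 4 of its own range and the other injuries with controls 5 to 8 of theirs. Rhabdomyolysis and cisplatin therefore share their controls, and they differ in time after injury as well as in cause.

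Fatty acids enter a cell through carriers and binding proteins and are joined to coenzyme A by acyl-CoA synthetases. Carnitine acyltransferases move the acyl group into the mitochondrion, where repeated rounds of beta-oxidation cut it to acetyl-CoA and pass electrons to the respiratory chain. Peroxisomes, which are built by the peroxins, shorten very long and branched chains in a similar cycle that ends in hydrogen peroxide. Lipid that is not burned is stored in droplets coated by perilipins. The proximal tubule, the main cell type of the cortex, relies on fatty acid oxidation for most of its energy. Transcription of these genes is governed in large part by PPAR-alpha with its partner RXR, by HNF4-alpha and by the estrogen-related receptors.

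Promoter sequences of 4 members are printed because they stand for the patterns described below. Plin2 rose in all injuries, Ehhadh fell most in rhabdomyolysis, Cpt1c rose in cisplatin, and Fabp1 was the member that held the repeat described next. Each is the 250 bases before the transcription start in RefSeq (GRCm38.p6), written 5′ to 3′ in the gene's direction, and capitals mark matches to the nuclear receptor motifs searched.
Plin2, chr4:86670060-86670309, minus strand: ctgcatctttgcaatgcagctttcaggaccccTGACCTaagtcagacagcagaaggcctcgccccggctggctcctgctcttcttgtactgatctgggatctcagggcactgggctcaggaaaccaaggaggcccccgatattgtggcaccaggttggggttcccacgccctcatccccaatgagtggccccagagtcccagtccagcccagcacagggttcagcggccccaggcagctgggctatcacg
Ehhadh, chr16:21787835-21788084, minus strand: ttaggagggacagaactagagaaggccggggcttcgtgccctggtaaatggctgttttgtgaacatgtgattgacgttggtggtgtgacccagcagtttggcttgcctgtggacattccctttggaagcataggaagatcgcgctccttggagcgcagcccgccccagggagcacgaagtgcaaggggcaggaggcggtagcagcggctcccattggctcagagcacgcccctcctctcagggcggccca
Cpt1c, chr7:44974852-44975101, minus strand: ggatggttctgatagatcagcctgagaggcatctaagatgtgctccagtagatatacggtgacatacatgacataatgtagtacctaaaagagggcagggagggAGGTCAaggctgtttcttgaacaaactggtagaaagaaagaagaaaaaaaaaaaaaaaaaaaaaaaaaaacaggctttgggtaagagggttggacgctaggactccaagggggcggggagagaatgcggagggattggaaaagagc
Fabp1, chr6:71199629-71199878, plus strand: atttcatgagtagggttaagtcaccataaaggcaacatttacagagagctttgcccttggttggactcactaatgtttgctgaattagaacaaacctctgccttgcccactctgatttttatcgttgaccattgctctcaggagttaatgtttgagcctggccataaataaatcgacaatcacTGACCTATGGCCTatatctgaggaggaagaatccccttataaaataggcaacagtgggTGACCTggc

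RefSeq windows of 300 bases (250 before and 50 after the start) were found for 49 of the 61 members and searched on both strands. The direct repeat bound by PPAR with RXR, written as 2 copies of AGGNCA with 1 base of any kind between them, was in the window of 1 of 49 members, Fabp1, against 0.451% of 27025 genes. In Fabp1 it lay 67 bases before the start on the opposite strand, as the longer run of capitals above. The 6-base receptor core AGGTCA, which that repeat can contain, was in the windows of 14 of 49 members (28.6%), against 18.1% of all genes. Plin2 and Cpt1c each held 1 core match and Ehhadh held none. The HNF4 core CAAAGTCCA and the estrogen-related receptor element TCAAGGTCA were found in 0 of the 49 windows, against 0.555% and 0.466% of all genes, and the absence of these letters from a short window says nothing about binding by these factors.

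The members lie on many chromosomes, with 2 clusters (positions from GENCODE M21, GRCm38). Acsm5 (chr7:119519463-119545551), Acsm2 (chr7:119554340-119600690), Acsm1 (chr7:119607026-119662515) and Acsm3 (chr7:119760923-119787513) sit side by side on the plus strand. Acot2 (chr12:83987861-83993873), Acot4 (chr12:84038379-84048601), Acot3 (chr12:84052144-84060402) and Acot5 (chr12:84069325-84076020) form the other cluster. The single genes described most below are Ehhadh (chr16:21761287-21787807), Plin2 (chr4:86648386-86670060) and Cpt1c (chr7:44959372-44974851), all on the minus strand.

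CPM here means reads relative to the effective size that the authors gave each library. The libraries held 3.48 to 5.40 M (mega) reads in the table, which made up 42.1% to 70.6% of that effective size. No gene in the table stayed within 1.5-fold of its control mean across the injuries, so the table is a selection for change, and shares of changed genes are high throughout. A gene counts as called when its limma p, adjusted over the 5672 genes tested, is under 0.05. Of the genes tested, 80.7% were called in IRI, 95.3% in rhabdomyolysis and 91.8% in cisplatin, so what can be read from the members is their direction and size. Lower calls alone made up 40.1%, 46.5% and 44% of genes tested, and higher calls 40.6%, 48.8% and 47.8%.

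Most of the members fell in every injury. In IRI, 46 of the 61 members fell, 9 rose and 6 were not called, which is 75.4% lower against the 40.1% of all genes. In rhabdomyolysis, 49 fell, 10 rose and 2 were not called, and in cisplatin 48 fell, 11 rose and 2 were not called. On the log2 scale the members' median fold changes were -0.72, -1.62 and -0.88 (IRI, rhabdomyolysis, cisplatin), beside medians over all genes of 0.08, 0.31 and 0.30. The medians over all genes depend on the minimum level, and over the 4429 genes left by a minimum mean of 5 CPM they were -0.06, -0.38 and -0.03, beside -0.77, -1.69 and -0.94 for the 58 members among them. A set of 45 members fell in all 3 injuries, which is 73.8% of the members against 36.9% of all genes tested. In 41 of the 45 (91.1%) the fitted fall was largest in rhabdomyolysis, against 71.5% of all genes that fell in the 3 injuries, and rhabdomyolysis and cisplatin share controls. Another 8 members (13.1%) rose in all 3 injuries, against 35.3% of all genes. No member had calls in opposite directions, against 0.705% of all genes.

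**Figure D1:**
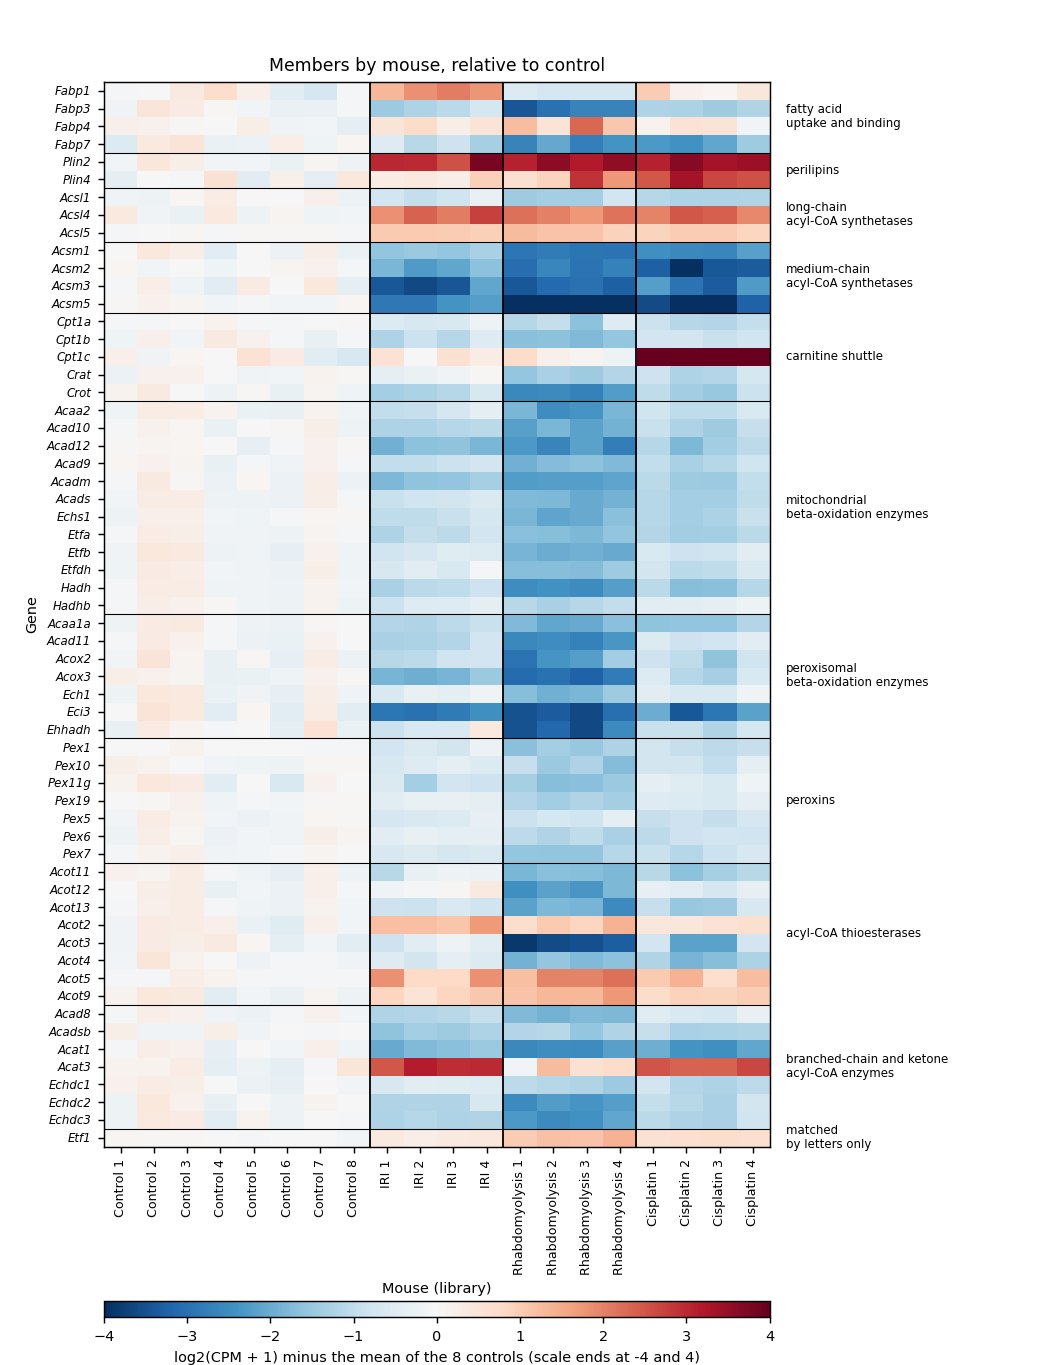
Members by mouse (60 drawn): each cell is log2(CPM + 1) of 1 gene in 1 library minus the mean of the 8 controls, on a colour scale that ends at -4 and 4, with genes ordered by role and mice by group. Blue fills most gene rows in the 12 injured mice and is darkest in rhabdomyolysis, while Plin2, Acsl4, Acsl5, Acot2, Acot5 and Acot9 are red in every injury and Cpt1c is red in cisplatin.

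The falls were seen in the individual mice as well. All 4 IRI mice lay below all 8 controls for 40 members, which is 65.6%, against 33.8% of all genes tested, and above them for 10, against 31% of all genes. All 4 rhabdomyolysis mice lay below for 49 members (80.3%, against 42.7% of all genes) and above for 9 (against 42.3%). All 4 cisplatin mice lay below for 46 members (75.4%, against 38% of all genes) and above for 10 (against 40.7%). Bulk RNA cannot tell fewer tubular cells from less RNA per cell. Of 16 proximal tubule markers, 15 were in the table, the defining Lrp2, Cubn and Slc34a1 among them, and 12, 15 and 15 of these fell in IRI, rhabdomyolysis and cisplatin. Their summed level was 30481 to 53862 CPM in the controls, 9124 to 14699 CPM after IRI, 8549 to 10121 CPM after rhabdomyolysis and 4347 to 7754 CPM in cisplatin, and its part in the falls of the members was not tested. Of 12 markers of the loop of Henle, distal tubule and collecting duct, 7 were in the table, and 7, 6 and 7 of these fell.

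The 12 mitochondrial beta-oxidation enzymes fell in all 3 injuries, each of them called each time. The median fold changes on the log2 scale were -0.92, -1.86 and -1.13 for IRI, rhabdomyolysis and cisplatin. Under quantile normalization 10 of the 12 were still called lower in IRI and 10 of 12 in cisplatin, and Hadhb turned sign in cisplatin. Hadhb was near the threshold in cisplatin (-0.26, limma adjusted p = 0.0438) and also lost the call under 75th percentile scaling, with edgeR, and without cisplatin mouse 1 (limma adjusted p = 0.0897), 2 (0.0955) or 3 (0.076) or control 7 (0.178). These enzymes were Acadm, Acads, Acad9, Acad10, Acad12, Echs1, Hadh, Hadhb, Acaa2 and the electron carriers Etfa, Etfb and Etfdh.

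Acadm, the medium-chain acyl-CoA dehydrogenase that opens each round of oxidation, ranged from 813 to 1238 CPM in the 8 controls (median 971). It was 278, 317, 325 and 388 CPM in the IRI mice, 205, 209, 210.5 and 225 CPM in the rhabdomyolysis mice, and 459, 358, 354 and 485 CPM in the cisplatin mice. All 12 injured mice lay below all controls, and the rhabdomyolysis mice lay below every cisplatin mouse. On the log2 scale Acadm changed by -1.60, -2.15 and -1.20 (IRI, rhabdomyolysis, cisplatin; SE 0.14 each; limma adjusted p of 2.9e-09, 6.6e-12 and 1.15e-07).

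Hadh, the hydroxyacyl-CoA dehydrogenase of shorter chains, ranged from 599 to 857 CPM in the controls (median 651). It was 284, 329.7, 347 and 391 CPM after IRI, 123, 129.7, 120.0 and 149 CPM after rhabdomyolysis, and 332, 215, 219 and 314 CPM after cisplatin. No injured mouse reached the control range, and the rhabdomyolysis mice were again the lowest, at 19.8% of the matched control mean. Acad12, an acyl-CoA dehydrogenase family member with the largest mean fall of this group, ranged from 23.4 to 33.5 CPM in the controls (median 30.9). Its values were 7.21, 8.92, 9.19 and 7.66 CPM after IRI, 5.29, 3.94, 5.99 and 3.52 CPM after rhabdomyolysis, and 13.1, 7.87, 10.8 and 13.9 CPM after cisplatin. Rhabdomyolysis left 16.1% of the matched control mean, IRI 26.5% and cisplatin 39.3%. Acad10 and Acad12 are neighbours that share 10.4% and 10.2% of their 100-base stretches, so reads may be divided between them.

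Etfdh, which hands electrons from fatty acid oxidation to ubiquinone, ranged from 190.1 to 279 CPM in the controls (median 207). It was 143, 163, 147 and 214 CPM after IRI, 67.8, 68.3, 67.2 and 83.3 CPM after rhabdomyolysis, and 135, 106, 109 and 146 CPM after cisplatin. IRI mouse 4 lay within the control range, while the rhabdomyolysis and cisplatin mice lay below it. In IRI the change of Etfdh was -0.52 on the log2 scale (SE 0.15, limma adjusted p = 0.00328), and it was -0.15 and not called there under quantile normalization (limma adjusted p = 0.284). In rhabdomyolysis it was -1.56 and in cisplatin -0.79.

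**Figure D2:**
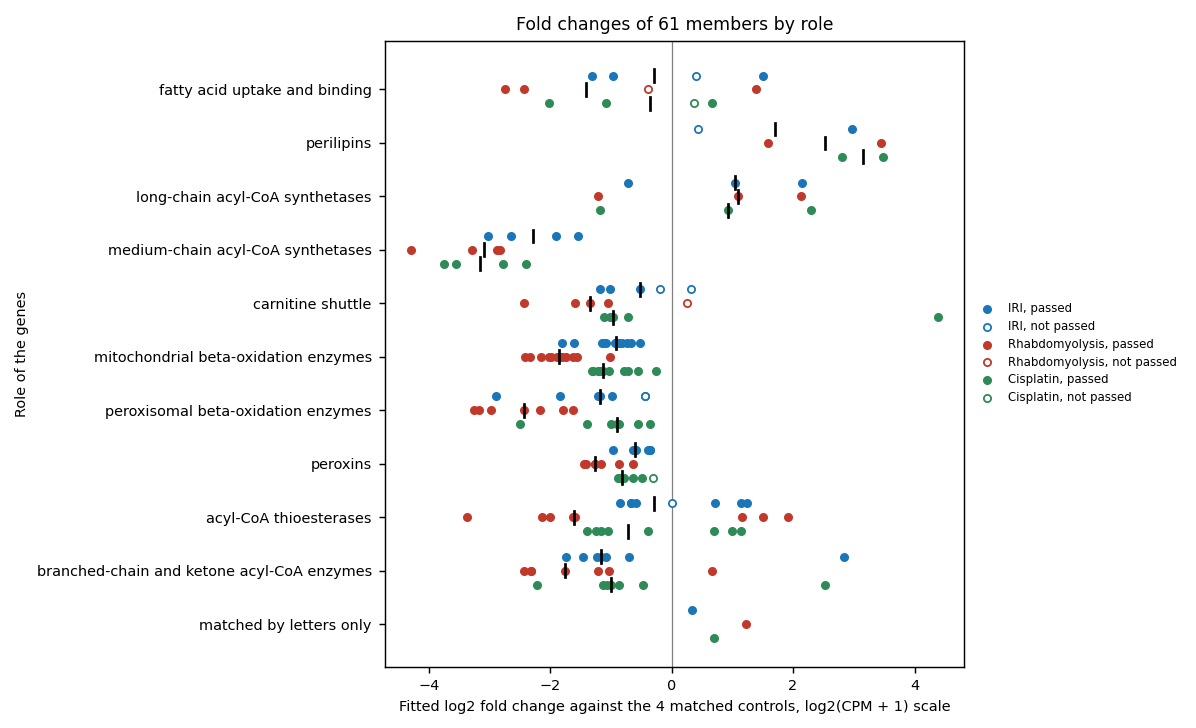
Fitted log2 fold changes of the 61 members against the 4 matched controls, on the log2(CPM + 1) scale, by role, with 1 point per gene and injury (blue IRI, red rhabdomyolysis, green cisplatin), filled where the limma adjusted p was under 0.05, and a black bar at each median. The mitochondrial enzymes, peroxisomal enzymes, peroxins and medium-chain synthetases lie left of 0, with rhabdomyolysis farthest left in the first of these groups at a median of -1.86, while both perilipins lie to the right. Under quantile normalization Cpt1a, Ech1, Crat and Ehhadh in IRI, Cpt1c in rhabdomyolysis and Ech1 and Hadhb in cisplatin lie on the other side of 0, and Acot12 in IRI, at 0.01 here, does so with DESeq2 and without control 1, control 4 or IRI mouse 4.

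The 7 peroxisomal beta-oxidation enzymes also fell. All 7 were called lower in rhabdomyolysis and in cisplatin and 6 of 7 in IRI, with medians of -1.18, -2.43 and -0.91 for IRI, rhabdomyolysis and cisplatin. Under quantile normalization 5 of them were called lower in IRI, 7 in rhabdomyolysis and 4 in cisplatin. Ech1, an isomerase of unsaturated chains, turned sign there for IRI and for cisplatin. Its falls were small, at -0.44 in IRI (limma adjusted p = 0.0196) and -0.36 in cisplatin (0.0439), and lost the call under 75th percentile scaling in both and with edgeR in cisplatin. With single libraries left out, the call of Ech1 in IRI was lost without control 2, control 3 or IRI mouse 1 (limma adjusted p from 0.0732 to 0.0854), and that in cisplatin without controls 5, 7 or 8 or cisplatin mice 1, 2 or 3 (from 0.0579 to 0.173). Eci3, an enoyl-CoA isomerase, had the largest mean fall. It ranged from 190.0 to 370.5 CPM in the controls (median 269) and was 34.1, 32.4, 36.2 and 47.0 CPM after IRI, 22.2, 25.2, 20.5 and 31.4 CPM after rhabdomyolysis, and 65.5, 23.9, 34.4 and 58.2 CPM after cisplatin. All injured mice lay below all controls, with log2 fold changes of -2.90, -3.25 and -2.49.

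Ehhadh, the bifunctional hydratase and dehydrogenase of the peroxisome and a classical PPAR-alpha target, ranged from 520.3 to 1036 CPM in the controls (median 672). It was 382, 450.5, 448 and 906 CPM after IRI, 60.5, 77.1, 56.0 and 117 CPM after rhabdomyolysis, and 371, 371, 296 and 421 CPM after cisplatin. All rhabdomyolysis mice lay far below every other mouse, the cisplatin mice lay below the controls, and IRI mouse 4 stood inside the control range. Ehhadh changed by -3.17 in rhabdomyolysis on the log2 scale (SE 0.25, limma adjusted p = 8.11e-11). In cisplatin it changed by -0.91 (limma adjusted p = 0.00191), and by -0.36 with no call under quantile normalization (limma adjusted p = 0.165). In IRI it was -0.44 and did not pass (limma adjusted p = 0.109), but without IRI mouse 4 it was -0.71 and passed (limma adjusted p = 0.00783), while under quantile normalization it was 0.18.

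Acox3, a peroxisomal oxidase of branched chains, ranged from 239 to 344 CPM in the controls (median 310.2). It was 80.6, 75.8, 80.9 and 105 CPM after IRI, 34.1, 36.4, 30.7 and 41.7 CPM after rhabdomyolysis, and 200.0, 133, 118 and 191 CPM in cisplatin. The 3 injured groups did not overlap with each other or with the controls, and cisplatin was the least affected. The changes were -1.83, -2.97 and -0.86 on the log2 scale (IRI, rhabdomyolysis, cisplatin; SE 0.16 each). Acad11, a peroxisomal acyl-CoA dehydrogenase of long chains, had the same order, at -1.21, -2.43 and -0.55, but lost its call in cisplatin under quantile normalization.

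**Figure D3:**
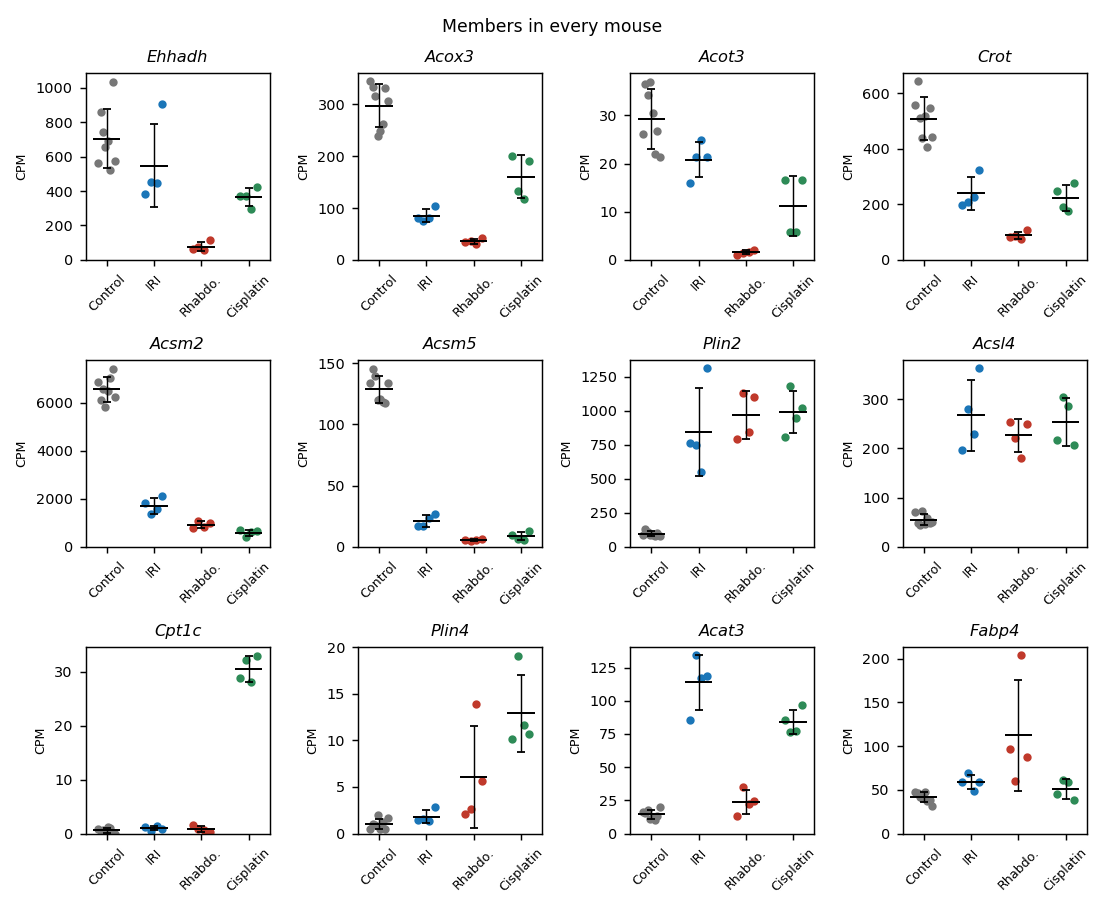
CPM of 12 members in every mouse, with 1 point per mouse and a bar at the mean with its SD (controls n = 8, each injury n = 4), each panel on its own linear axis from 0. The rhabdomyolysis mice sit at 56.0 to 117 CPM for Ehhadh and at 1.04 to 2.04 CPM for Acot3, below every other mouse, and the cisplatin mice sit at 28.2 to 32.9 CPM for Cpt1c, above every other mouse.

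The peroxins, which build the organelle and import its enzymes, had smaller median falls than either set of oxidation enzymes, except under quantile normalization in cisplatin (-0.83, against -0.82 for the mitochondrial and -0.57 for the peroxisomal enzymes). All 8 in the table were called lower in IRI and in rhabdomyolysis and 7 of 8 in cisplatin, with medians of -0.60, -1.27 and -0.81. In IRI, Pex6 and Pex19 lost the call under quantile normalization, leaving 6 of 8, and Pex6 lost it under 75th percentile scaling and without control 2 (limma adjusted p = 0.0573). Pex11g, which takes part in peroxisome division, was not called in cisplatin, at -0.31. Pex7, the import receptor for thiolase, ranged from 77.5 to 97.3 CPM in the controls (median 82.3). It was 54.2, 58.2, 53.3 and 55.8 CPM after IRI, 28.7, 27.8, 27.8 and 37.7 CPM after rhabdomyolysis, and 45.3, 38.2, 46.8 and 54.5 CPM in cisplatin. The injured mice all lay below the controls. The fold changes of Pex7 were -0.64, -1.43 and -0.84 on the log2 scale. Pex5, the receptor that imports most matrix enzymes, changed by -0.60, -0.63 and -0.79, with no difference called between rhabdomyolysis and cisplatin.

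Among the 5 carnitine acyltransferases, 3 fell in IRI, 4 fell in rhabdomyolysis, and 4 fell while 1 rose in cisplatin. Cpt1a, the form that sets the rate of mitochondrial entry in liver and kidney, ranged from 759 to 875 CPM in the controls (median 787). It was 545, 511, 524 and 685 CPM after IRI, 357, 415, 255 and 552 CPM after rhabdomyolysis, and 439, 357, 356 and 413 CPM after cisplatin. Every injured mouse lay below every control. Cpt1a changed by -1.05 in rhabdomyolysis and by -1.01 in cisplatin on the log2 scale. Its change in IRI was -0.52 (SE 0.16, limma adjusted p = 0.00562) and turned to 0.12 under quantile normalization.

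Crot, which makes medium-chain acylcarnitines in the peroxisome, ranged from 407 to 643 CPM in the controls (median 513). It was 196, 209.5, 227 and 325 CPM after IRI, 83.7, 85.4, 76.7 and 106 CPM after rhabdomyolysis, and 247, 191, 175 and 278 CPM after cisplatin. The injured mice lay below the controls, and the rhabdomyolysis mice below the others, at 18.4% of the matched control mean. Crat, which acts on acetyl groups, ranged from 202 to 267 CPM in the controls (median 241) and was 186, 200.3, 216 and 246 CPM after IRI, 80.7, 97.5, 87.5 and 105 CPM after rhabdomyolysis, and 134, 101, 105 and 145 CPM after cisplatin. The IRI mice overlapped the controls and the others did not. Crat was not called in IRI (log2 fold change -0.19, limma adjusted p = 0.172, and 0.19 under quantile normalization) and fell by 1.34 in rhabdomyolysis and by 0.97 in cisplatin on the log2 scale.

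Cpt1c, the form known from neurons and with little enzyme activity, was the one member of this group that rose. It was near the detection limit in the controls, with 0 to 8 reads per library and at most 1.32 CPM. The IRI mice had 1.31, 0.533, 1.38 and 0.915 CPM and the rhabdomyolysis mice 1.61, 0.788, 0.665 and 0.341 CPM. The cisplatin mice had 28.8, 32.2, 28.2 and 32.9 CPM, from 247 to 340 reads, against 17 reads or fewer in every other library. The 4 cisplatin values were close to each other and far above all others. Cpt1c met the minimum of 1 CPM only through cisplatin, since its mean over the other 16 libraries was 0.775 CPM, so its difference there is given as a description, with a fitted log2 fold change of 4.38. It was 0.32 in IRI and 0.25 in rhabdomyolysis, where it did not pass, and -0.0415 in rhabdomyolysis under quantile normalization. An antisense gene, 6530437J22Rik, overlaps Cpt1c, and whether the counting used strand was not given in the sources used here.

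Per kb of exon, Cpt1a was the main form of its family in the controls, at a mean of 104 CPM per kb, against 10.1 for Cpt1b and 0.108 for Cpt1c. Cpt1b shares most of its transcript with the annotated gene Gm44502, so its reads may have been divided between them.

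The 4 medium-chain acyl-CoA synthetases of the chromosome 7 cluster had the lowest median of all roles in each injury. All 4 were called lower in each injury, with medians of -2.28, -3.08 and -3.16. These mitochondrial enzymes activate medium-chain fatty acids and aromatic acids such as benzoate, and they are known as markers of the differentiated proximal tubule. Their summed level was 6744 to 8959 CPM in the controls, 1523 to 2435 CPM after IRI, 902 to 1204 CPM after rhabdomyolysis and 560.5 to 916 CPM in cisplatin.

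Acsm2, the most abundant member per kb of exon at 882 CPM per kb in the controls, ranged from 5808 to 7413 CPM (median 6506). It was 1819.7, 1350.2, 1551 and 2107 CPM after IRI, 785, 1068, 838 and 1005 CPM after rhabdomyolysis, and 679, 405, 621 and 649 CPM after cisplatin. The 3 injured groups did not overlap, and here cisplatin was lowest. Acsm2 changed by -1.90 in IRI, by -2.88 in rhabdomyolysis and by -3.55 in cisplatin on the log2 scale (SE 0.16 each). Acsm2 was the only one of the 4 that was higher in rhabdomyolysis than in cisplatin (0.67 on the log2 scale, limma adjusted p = 0.00161).

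Acsm5 ranged from 118 to 146 CPM in the controls (median 127). It was 16.7, 16.9, 23.5 and 26.9 CPM after IRI, 5.20, 4.53, 5.13 and 6.47 CPM after rhabdomyolysis, and 9.92, 6.66, 5.14 and 12.6 CPM in cisplatin. With 4.35% of the matched control mean left in rhabdomyolysis, it had the largest fitted fall of the 61 members (log2 fold change -4.29, SE 0.19). Every injured mouse lay far below every control.

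Acsm3 ranged from 634 to 1135 CPM in the controls (median 827). It was 79.2, 68.9, 78.1 and 202 CPM after IRI, 79.4, 96.8, 105 and 87.6 CPM after rhabdomyolysis, and 183, 109, 84.0 and 175 CPM after cisplatin. IRI mouse 4 stood above the other 3 of its group, and no injured mouse neared the controls, with log2 fold changes of -3.03, -3.28 and -2.78. Acsm1 ranged from 182 to 327 CPM in the controls (median 243). It was 82.1, 86.7, 82.8 and 99.9 CPM after IRI, 32.4, 34.1, 31.4 and 31.1 CPM after rhabdomyolysis, and 44.1, 40.0, 39.5 and 53.1 CPM after cisplatin. The 3 injuries did not overlap, and 33.5%, 13.6% and 18.7% of the matched control mean of Acsm1 remained.

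The 3 long-chain acyl-CoA synthetases split in the same way in each injury, with Acsl4 and Acsl5 higher and Acsl1 lower. Acsl4, which prefers arachidonic acid and supplies the phospholipids that are oxidised in ferroptosis, ranged from 44.9 to 71.8 CPM in the controls (median 49.3). It was 196, 279, 228 and 363 CPM after IRI, 253, 222, 181 and 249 CPM after rhabdomyolysis, and 217, 304, 286 and 206 CPM after cisplatin. The 12 injured mice lay above all controls, and the injuries overlapped. Acsl4 rose by 2.15, 2.13 and 2.29 on the log2 scale (SE 0.18 each), and the difference between rhabdomyolysis and cisplatin had a 95% interval from -0.53 to 0.23.

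Acsl5 was tight in the controls, from 113 to 124 CPM, and rose to 245, 247, 241 and 233 CPM after IRI, 286, 264, 261 and 227 CPM after rhabdomyolysis, and 222, 240.0, 240.3 and 218 CPM after cisplatin. All injured mice lay above all controls, and the log2 fold changes were 1.04, 1.09 and 0.92. Acsl1, the form tied to oxidation, fell from 265 to 386 CPM in the controls (median 308) to 181, 159, 180.5 and 255 CPM after IRI, 115, 122, 119.9 and 183 CPM after rhabdomyolysis, and 142, 132, 131 and 135 CPM after cisplatin. Its log2 fold change in IRI was -0.72 (limma adjusted p = 0.000269) and -0.32 under quantile normalization, where it did not pass (limma adjusted p = 0.0611). Per kb of exon, the control order was Acsl1 (29.9 CPM per kb), Acsl5 (24.5) and Acsl4 (10.2).

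The 8 thioesterases, which release fatty acids from coenzyme A, moved both ways. Acot2 and Acot9 rose in every injury, Acot5 was above the controls in every injured mouse, and Acot3, Acot4, Acot11 and Acot13 fell in every injury. Acot12, a cytosolic acetyl-CoA hydrolase, was not called in IRI (0.01 on the log2 scale) and fell by 2.14 in rhabdomyolysis and by 0.38 in cisplatin, the latter with no call under quantile normalization (-0.06, limma adjusted p = 0.65), with edgeR (-0.33, adjusted p = 0.0504), or without cisplatin mouse 3 (limma adjusted p = 0.0808) or control 7 (0.0833). The peroxisomal Acot3 and Acot5 are neighbours on chromosome 12 and differed in direction.

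Acot3 ranged from 21.4 to 37.0 CPM in the controls (median 28.6). It was 15.9, 21.3, 24.8 and 21.3 CPM after IRI, 1.04, 1.48, 1.62 and 2.04 CPM after rhabdomyolysis, and 16.6, 5.75, 5.81 and 16.7 CPM in cisplatin. The rhabdomyolysis mice were the lowest, the cisplatin mice lay below the controls in 2 separate pairs, and IRI overlapped the controls. Acot3 changed by -3.36 in rhabdomyolysis (SE 0.26) and by -1.24 in cisplatin on the log2 scale. In IRI it was -0.67 (limma adjusted p = 0.0237), and it lost the call without IRI mouse 1 (limma adjusted p = 0.08), without control 2 (0.0543) or control 4 (0.0541), against all 8 controls (0.066) and under 75th percentile scaling (0.0577).

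Acot5 was nearly silent in the controls, with 0 to 2 reads per library, and met the minimum of 1 CPM only through rhabdomyolysis (mean over the other 16 libraries 0.782 CPM). The IRI mice had 21, 6, 7 and 24 reads, the rhabdomyolysis mice 15, 32, 33 and 34 reads, and the cisplatin mice 10, 17, 6 and 15 reads. Controls 5 to 8 had no read, and against a floor of 3 reads per control library the mean was at least 6.46-fold higher after rhabdomyolysis and, after cisplatin, at least 2.80-fold higher. The rhabdomyolysis value is a description, and the floor covers counting error only. Acot2, a mitochondrial thioesterase, rose from 32.4 to 57.6 CPM in the controls (median 47.4) to 108, 107, 99.2 and 152 CPM after IRI, 74.4, 95.3, 84.1 and 123 CPM after rhabdomyolysis, and 63.4, 63.1, 68.8 and 72.2 CPM in cisplatin. For Acot2 every injured mouse lay above every control, with log2 fold changes of 1.14, 1.16 and 0.70. Acot9, also mitochondrial, ranged from 38.5 to 70.9 CPM in the controls (median 52.7) and was 96.1, 77.0, 96.9 and 114 CPM after IRI, 117, 135, 135 and 179.5 CPM after rhabdomyolysis, and 87.5, 101, 98.5 and 106 CPM after cisplatin. Again no injured mouse reached down to the controls, and Acot9 rose by 0.72, 1.51 and 1.00 on the log2 scale. Acot2, Acot3 and Acot5 share stretches of sequence with each other's family members, so the division of reads among them is uncertain.

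Of 7 enzymes of branched-chain and ketone acyl-CoA, 6 fell in each injury and Acat3 rose. Acat1, the mitochondrial thiolase of ketone body and isoleucine breakdown, ranged from 733 to 1126 CPM in the controls (median 920.2) and was 227, 273, 293 and 333 CPM after IRI, 155, 165, 160.4 and 203 CPM after rhabdomyolysis, and 237, 176, 170.0 and 217 CPM in cisplatin. All injured mice lay below all controls. The fall of Acat1 was -1.74, -2.43 and -2.21 on the log2 scale (SE 0.15 each).

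Acat3, a relative of the cytosolic thiolase Acat2, ranged from 10.6 to 20.2 CPM in the controls (median 14.7). It was 85.4, 134, 117 and 119 CPM after IRI, 13.2, 35.4, 22.0 and 24.4 CPM after rhabdomyolysis, and 85.8, 76.6, 77.4 and 96.5 CPM in cisplatin. The IRI and cisplatin mice lay far above the controls, and the rhabdomyolysis mice overlapped them. The log2 fold change was 2.84 in IRI and 2.52 in cisplatin, against 0.67 in rhabdomyolysis (SE 0.22 each). Acat3 shares 37.2% of its 100-base stretches with Acat2, so part of these reads may belong to Acat2, and Tcp1 lies over it on the opposite strand.

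The 4 fatty acid binding proteins differed in direction. Fabp3, the heart form and the main one in the control cortex at 148 CPM per kb of exon, ranged from 98.2 to 169 CPM in the controls (median 111). It was 43.3, 49.9, 55.6 and 73.0 CPM after IRI, 10.3, 14.4, 18.1 and 18.1 CPM after rhabdomyolysis, and 50.7, 49.0, 43.8 and 51.7 CPM in cisplatin. All injured mice lay below all controls, and the rhabdomyolysis mice lay below the rest, with log2 fold changes of -1.31, -2.74 and -1.09. Fabp7, the brain form, ranged from 7.00 to 15.7 CPM in the controls (median 10.3) and was 7.21, 4.40, 5.63 and 3.66 CPM after IRI, 0.851, 1.87, 0.760 and 1.25 CPM after rhabdomyolysis, and 1.40, 1.21, 1.79 and 3.39 CPM after cisplatin. IRI mouse 1 reached the control range and the other injured mice lay below it.

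Fabp1, the liver form and the member with the PPAR repeat printed above, was low everywhere. The controls had 0 to 11 reads per library, the IRI mice 23, 35, 49 and 39 reads, the rhabdomyolysis mice 1, 0, 0 and 0 reads, and the cisplatin mice 19, 8, 6 and 12 reads. The IRI mice lay above all controls, while the other injuries overlapped them. It met the minimum of 1 CPM only through IRI, as its mean over the other 16 libraries was 0.638 CPM, and its fitted log2 fold change in IRI, 1.51, is a description. In cisplatin it was 0.67 (limma adjusted p = 0.00952), and without cisplatin mouse 1 it was 0.47 and did not pass (limma adjusted p = 0.0554), nor did it against all 8 controls (0.43, limma adjusted p = 0.0612) or under quantile normalization (0.24, limma adjusted p = 0.331). In rhabdomyolysis it was -0.40 (limma adjusted p = 0.102). It passed at -1.58 with a pseudocount of 0.1 CPM (limma adjusted p = 0.0102), -3.15 with edgeR (adjusted p = 0.0109) and -3.57 with DESeq2 (adjusted p = 0.00275). It also passed at -0.60 under quantile normalization (limma adjusted p = 0.0175), -0.64 against all 8 controls (limma adjusted p = 0.00706) and -0.54 without control 7 (limma adjusted p = 0.0381).

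Fabp4, the adipocyte form that endothelial cells and macrophages also make, ranged from 31.9 to 48.1 CPM in the controls (median 41.3). It was 58.7, 69.0, 48.7 and 59.0 CPM after IRI, 97.2, 60.7, 205 and 87.2 CPM after rhabdomyolysis, and 45.6, 61.4, 58.6 and 37.9 CPM in cisplatin. Rhabdomyolysis mouse 3 stood high, and the other 3 of that group still lay above all controls. All 4 IRI mice lay above the highest control, mouse 3 only narrowly. Fabp4 was called in rhabdomyolysis (log2 fold change 1.38, limma adjusted p = 1.15e-05), and without mouse 3 the value was 1.04 (limma adjusted p = 1.23e-05). It was 0.40 in IRI (limma adjusted p = 0.122), where it passed against all 8 controls (0.50, limma adjusted p = 0.0278), and 0.37 in cisplatin (limma adjusted p = 0.137). Of 10 adipocyte markers only Cidec and Car3 were in the table, and mouse 3 was the highest of its group for both, at 18.5 and 49.0 CPM, against 0.493 to 2.38 and 4.43 to 8.60 CPM in the other 3 mice. For Car3 this was no higher than the controls (28.8 to 115 CPM), and Cidec was also above the controls (at most 0.387 CPM) in every IRI mouse (4.33 to 12.4 CPM) and every cisplatin mouse (6.42 to 14.1 CPM). Adipoq, Lep and Plin1, the defining markers, were not analysed here.

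Markers of the other cells that make Fabp4 moved as well. Of 10 endothelial markers 4 were in the table, Pecam1 and Cdh5 among them. Their summed level was 174 to 360.2 CPM in the controls, 341 to 381 CPM after IRI, 601 to 857 CPM after rhabdomyolysis and 381 to 537 CPM in cisplatin, and 3, 4 and 4 of them rose. Of 12 macrophage markers 11 were in the table, and 6, 10 and 9 rose in IRI, rhabdomyolysis and cisplatin while the defining Csf1r fell in each. Spp1, which injured tubules also make, dominates that list, and without it the sum was 89.8 to 131 CPM in the controls, 141 to 180.3 CPM after IRI, 145 to 325 CPM after rhabdomyolysis and 232 to 350.2 CPM in cisplatin. The part of these cells in the Fabp4 values was not tested.

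Of the lipid droplet coats, Plin2 rose in every injury and Plin4 in rhabdomyolysis and cisplatin. Plin2, which covers droplets in most cell types, ranged from 77.8 to 128 CPM in the controls (median 87.5). It was 762, 751, 549 and 1309 CPM after IRI, 791, 1131, 846 and 1099.8 CPM after rhabdomyolysis, and 807, 1179.6, 947 and 1016 CPM in cisplatin. Every injured mouse lay far above the highest control, and the 3 injuries overlapped. Plin2 rose by 2.96, 3.45 and 3.49 on the log2 scale (SE 0.20 each, limma adjusted p of 2.76e-11, 5.06e-13 and 6.4e-13). The difference between rhabdomyolysis and cisplatin was -0.03, with a 95% interval from -0.44 to 0.38.

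Plin4, an adipose perilipin, was low in the controls, at 3 to 14 reads per library. It was 1.44, 1.60, 1.38 and 2.86 CPM after IRI, 2.08, 2.66, 13.9 and 5.68 CPM after rhabdomyolysis, and 10.2, 19.1, 11.6 and 10.7 CPM in cisplatin. The cisplatin and rhabdomyolysis mice all lay above all controls, rhabdomyolysis mouse 1 only narrowly. Rhabdomyolysis mouse 3 stood high here too. The log2 fold change was 2.80 in cisplatin (SE 0.35, limma adjusted p = 2.41e-07) and 1.58 in rhabdomyolysis (limma adjusted p = 0.00025). Without rhabdomyolysis mouse 3 the latter was 1.13 (limma adjusted p = 0.00109). In IRI it was 0.43 and did not pass (limma adjusted p = 0.258).

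Other genes of the same pathways came from a list written for this comparison, and 56 of its 92 genes were in the table. Of these, 43 fell and 7 rose in IRI, 48 fell and 6 rose in rhabdomyolysis, and 42 fell and 8 rose in cisplatin. Lower calls made up 76.8%, 85.7% and 75% of the 56, against 40.1%, 46.5% and 44% of all genes tested. Higher calls made up 12.5%, 10.7% and 14.3%, against 40.6%, 48.8% and 47.8%. Ppargc1a, the coactivator that drives mitochondrial biogenesis, fell to 51.5%, 37.4% and 45.9% of the matched control mean in IRI, rhabdomyolysis and cisplatin. Catalase (Cat), the peroxisomal enzyme that removes hydrogen peroxide, fell by 0.71, 1.53 and 0.91 on the log2 scale. Slc27a2, a fatty acid transporter and very-long-chain acyl-CoA synthetase of the proximal tubule, fell from 2908 to 5193 CPM in the controls to 1488 to 1974 CPM after IRI, 387 to 559 CPM after rhabdomyolysis and 1139.8 to 1966 CPM in cisplatin.

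The few genes of that list that rose included several known PPAR targets. Most genes of the list fell, and so did Ehhadh, the PPAR-alpha target described above, in rhabdomyolysis and cisplatin. A part of PPAR in these changes was not tested. Angptl4, an inhibitor of lipoprotein lipase, rose by 1.72, 0.71 and 1.92 on the log2 scale for IRI, rhabdomyolysis and cisplatin. Pdk4, which shuts off pyruvate entry to the mitochondrion, rose by 3.14, 1.81 and 2.65. Hilpda, which blocks lipolysis of droplets, rose by 1.37, 1.22 and 1.67.

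Rhabdomyolysis and cisplatin were then compared directly, with no control in the contrast. Over all genes 54.1% were called, 21.4% higher and 32.7% lower in rhabdomyolysis. Of the members, 41 were lower in rhabdomyolysis, 6 were higher and 14 were not called, and the median difference was -0.71 on the log2 scale beside -0.09 over all genes. The share of all called genes that was higher depends on the scaling, with 1215 higher and 1853 lower here against 1693 higher and 1583 lower under quantile normalization. The members split 8 higher and 38 lower under quantile normalization.

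All 12 mitochondrial and all 7 peroxisomal beta-oxidation enzymes were lower in rhabdomyolysis than in cisplatin. Of the 19, Acaa1a (-0.40, limma adjusted p = 0.0193) lost this call with edgeR (adjusted p = 0.0685), with DESeq2 (0.141) and without cisplatin mouse 4 or rhabdomyolysis mouse 2 or 3 (limma adjusted p from 0.0554 to 0.0906). Etfa lost it with DESeq2 (adjusted p = 0.0586), and Eci3 without cisplatin mouse 1 (limma adjusted p = 0.0788) or 4 (0.0675). The summed level of the 19 was 5348 to 8022 CPM in the controls, 1360 to 1662 CPM in rhabdomyolysis and 2798 to 3754 CPM in cisplatin. The summed proximal tubule markers, dominated by the abundant Kap, were higher in rhabdomyolysis (8549 to 10121 CPM) than in cisplatin (4347 to 7754 CPM). Without Kap the other 14 summed to 2310 to 2927 CPM in rhabdomyolysis and 1562 to 3004 CPM in cisplatin, and the groups overlapped. Singly, 7 of the 15 markers were higher in rhabdomyolysis and 6 lower. Cell type markers, time after injury and agent cannot be told apart as sources of the difference.

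The largest differences among members that met the minimum without cisplatin were Ehhadh (-2.27, SE 0.25), Acot3 (-2.12, SE 0.26) and Acox3 (-2.11, SE 0.16), all lower in rhabdomyolysis. Cpt1c, which met it only through cisplatin, stood at -4.13. The members that were higher in rhabdomyolysis were Fabp4 (1.01), Acsm2 (0.67), Etf1 (0.51), Acot9 (0.51) and Acot2 (0.46), with Acot5 (0.77) as a description, since it met the minimum only through rhabdomyolysis. Without rhabdomyolysis mouse 3 Fabp4 was at 0.67 and kept the call, and without rhabdomyolysis mouse 4 Acot2 (0.33, limma adjusted p = 0.0925) and Acot9 (0.39, limma adjusted p = 0.0539) lost it. Acsl1, Acsl4, Acsl5, Cpt1a, Plin2 and Acat1 were among the 14 with no call, and for Cpt1a the difference of -0.04 had a 95% interval from -0.37 to 0.29.

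**Figure D4:**
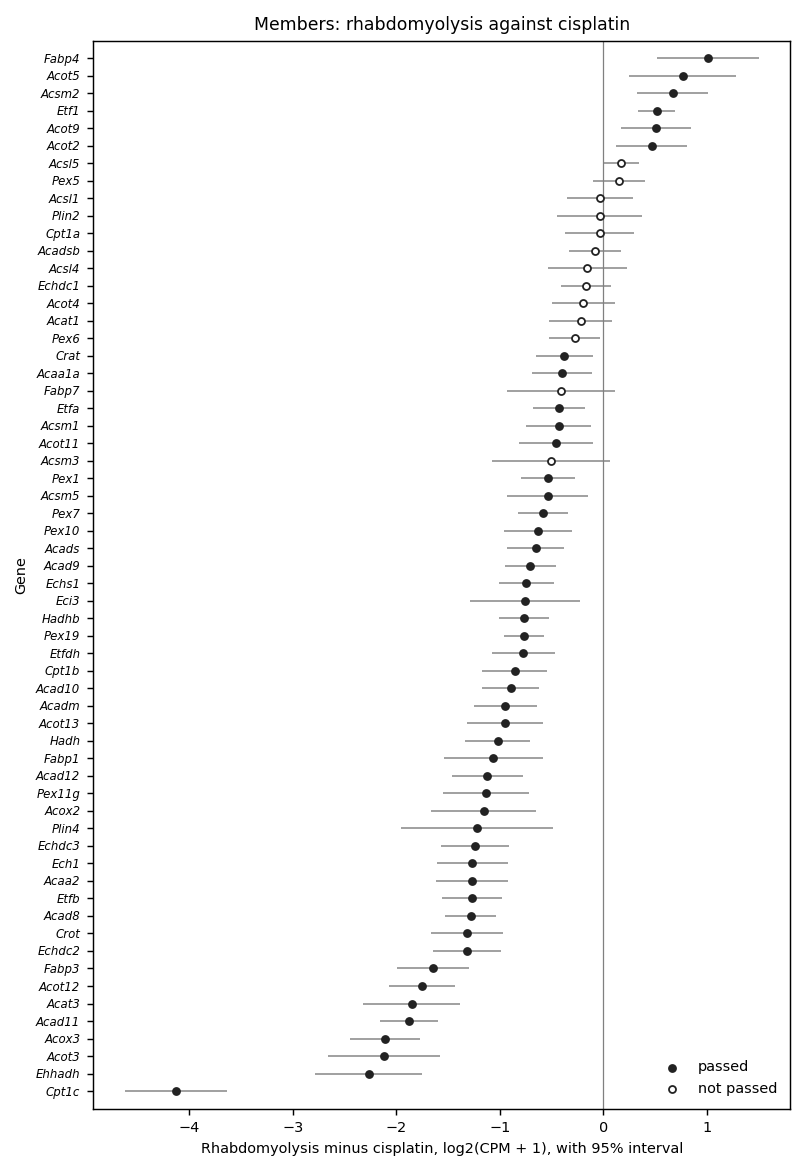
Rhabdomyolysis minus cisplatin for 60 members on the log2(CPM + 1) scale, sorted, with the 95% interval of the limma fit, filled where the adjusted p was under 0.05. Most points lie left of 0, from Cpt1c at -4.13 at the bottom, and Fabp4 at 1.01 lies farthest right.

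IRI shares no libraries with the other injuries and was compared through the difference between effects, each against its own controls. Against rhabdomyolysis, 52% of all genes differed, and of the members 42 had a less negative or more positive effect in IRI, 3 had a lower one and 16 did not differ by this test. The lower count was 6 without IRI mouse 4 and 5 without rhabdomyolysis mouse 1. Higher effects made up 68.9% of the members and 28.6% of all genes, and lower effects 4.92% and 23.4%. The largest differences were in Ehhadh (2.74, SE 0.35), Acot3 (2.70, SE 0.37) and Acat3 (2.17, SE 0.32), and the 3 with a lower effect in IRI were Fabp4 (-0.98, and -0.64 without rhabdomyolysis mouse 3), Etf1 (-0.89) and Acot9 (-0.79). Acot12 differed by 2.15.

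Against cisplatin, 30.3% of all genes differed, and of the members 8 had a higher effect in IRI, 6 a lower one and 47 did not differ by this test. Higher effects made up 13.1% of the members and 13.5% of all genes, and lower effects 9.84% and 16.8%. Over the members the median difference was 0.12. Cpt1c (-4.06, a description for the reason given above), Plin4 (-2.37, SE 0.50) and Acox3 (-0.97, SE 0.23) had the lowest values, and Acsm2 (1.64, SE 0.23), Acsm5 (1.11, SE 0.27) and Fabp7 (1.05, SE 0.36) the highest. With all 8 controls used for both injuries, 29 members were called in place of 14, which is 47.5% of the members, while the share of all genes called rose from 30.3% to 46.5%. Fabp7 missed the threshold when any one of 8 single libraries was left out.

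Etf1, the translation factor caught by the symbol rule, moved apart from the enzymes. It ranged from 154 to 176 CPM in the controls (median 165) and was 218, 199.7, 219 and 222 CPM after IRI, 338, 370.5, 365 and 431 CPM after rhabdomyolysis, and 250.0, 266, 269 and 263 CPM in cisplatin. All injured mice lay above all controls. The log2 fold change was 0.33, 1.22 and 0.71, each with an SE of 0.09.

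Mice of one group differed in how far the oxidation enzymes had fallen. Of the 19 beta-oxidation enzymes, IRI mouse 4 was the highest of its group in 17, rhabdomyolysis mouse 4 in 13 and cisplatin mouse 4 in 15. In cisplatin, mice 1 and 4 both lay above mice 2 and 3 for 16 of the 19. The summed proximal tubule markers split cisplatin the same way, at 7754 and 7731 CPM in mice 1 and 4 against 4347 and 5433 CPM in mice 2 and 3, and without Kap at 3004 and 2615 CPM against 1562 and 1822 CPM. In IRI the sums were 11932, 9124, 12193 and 14699 CPM in mice 1 to 4, with mouse 4 highest as for the enzymes. Without Kap they were 4529, 3586, 4543 and 4207 CPM, where mouse 4 was not the highest, and the defining Lrp2 and Cubn were lowest in mouse 4, at 479 and 157 CPM. In rhabdomyolysis mouse 4 had the highest sum with Kap (10121 CPM) and without it (2927 CPM). With single libraries left out, the number of members called lay between 52 and 56 in IRI, between 59 and 60 in rhabdomyolysis, and between 56 and 60 in cisplatin.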

How the data were processed

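Bulk RNA-seq of renal cortex was available for 20 libraries (controls n = 8, each injury n = 4). Reads were processed by the authors with FastQC, Bowtie2 2.1.0, RSEM 1.2.15 and edgeR on GRCm38/mm10, per the submitters' processing notes, which give no order, and the deposited values are CPM, normalized by the authors to an effective library size. Whether the counting used strand was not given in the sources used here. In every library 100% of the CPM values lay within 0.01 read of a whole multiple of the value of 1 read, so reads were recovered. The table holds 3.48 to 5.40 M reads of each library, and the floors of 3 reads cover counting error only, while the 95% intervals come from the limma fit over mice.

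Here log2(CPM + 1) was fitted with limma 3.58.1 (R 4.3.3, trended empirical Bayes) over all 20 libraries as 5 cells: controls 1 to 4, controls 5 to 8 and the 3 injuries. Genes needed a mean of at least 1 CPM, which left 5672 genes and took out 353. All 61 members passed, but Acot5, Cpt1c and Fabp1 did so only through 1 group in which they were high (rhabdomyolysis, cisplatin and IRI), and counts of members called include these 3. Adjustment was by Benjamini-Hochberg over all genes tested, with a threshold of 0.05. Fold changes are on the log2(CPM + 1) scale and understate those of low genes. Between the 2 sets of controls 0 of 5672 genes were called by limma, with 454 at an unadjusted p under 0.05, and edgeR on the recovered reads was not run for that contrast.

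Alternatives were a pseudocount of 0.1 CPM, no minimum or a minimum mean of 5 CPM, scaling by the 75th percentile, quantile normalization, edgeR 4.0.16 and DESeq2 1.42.0 on the recovered reads, all 8 controls as 1 group, the replicate number as a block, and each library left out in turn. edgeR called 2419 genes higher and 2122 lower in IRI, 2843 and 2560 in rhabdomyolysis, and 2752 and 2437 in cisplatin. Members named with values in every sample were textbook genes, the largest fall and rise in each role, and the 3 largest each way between injuries. Members, lists and tests were chosen with earlier results of these data known. Values of 2 genes are not reported here, although counts and medians include them.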

Additional observations from a re-analysis of the deposited data

Results flagged for a closer look

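Within groups of 4 or 8 mice, 9 of 124 member groups had 1 mouse set apart from the rest. At 1 in 20, 6.2 groups would be flagged. The groups are genes measured in the same mice and are not independent, so 6.2 is a rough guide and no test. The share of the group's range taken by the gap to the next mouse was 0.840 for Acot2, 0.922 for Acsm3, 0.869 for Ehhadh and 0.851 for Plin4 in IRI mouse 4, which was the highest of its group each time. It was 0.900 for Acsl1, 0.932 for Etfdh and 0.903 for Pex7 in rhabdomyolysis mouse 4, also the highest. Fabp1 in rhabdomyolysis mouse 1 had a share of 1.0, from 1 read against 0 in the other 3. Plin4 in cisplatin mouse 2 had 0.836.

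By the limma test of the difference, effects against matched controls differed between IRI and rhabdomyolysis for 45 members (73.8%, against 52% of all genes). Between IRI and cisplatin they differed for 14 (23%), which is below the 30.3% of all genes. Against rhabdomyolysis the differences were -0.98 for Fabp4, -0.89 for Etf1, -0.79 for Acot9, 2.74 for Ehhadh, 2.70 for Acot3 and 2.17 for Acat3 on the log2 scale. Against cisplatin they were -4.06 for Cpt1c, -2.37 for Plin4, -0.97 for Acox3, 1.64 for Acsm2, 1.11 for Acsm5 and 1.05 for Fabp7.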

How the results depend on the processing

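Over the alternatives, 334 of the recomputed counts stayed within 1.5 times the reported count and 5 did not. The tally for members named by rule covers each injury against controls and, between injuries, only the 3 largest each way. Outside it, Crat, Acsm1, Acsm5 and Plin4 lost calls between rhabdomyolysis and cisplatin under some alternatives. So did Acadm and Acad12 between IRI and rhabdomyolysis, and Etf1 between IRI and cisplatin. Within the tally, 1857 values kept direction and side of the threshold, 21 lost the call, 10 gained it and 4 turned sign. The 4 were under quantile normalization: Cpt1a (0.12), Crat (0.19) and Ehhadh (0.18) in IRI, and Cpt1c in rhabdomyolysis (-0.0415), of which Cpt1a had been called. Among all 61 members, Ech1 (IRI and cisplatin) and Hadhb (cisplatin) also lost their calls and turned sign there, and of the called members 7 in IRI and 7 in cisplatin lost the call. The cause was not tested. Between IRI and cisplatin, 29 members were called (47.5%, against 46.5% of all genes) and 22 were higher (36.1%, against 21.1%) with all 8 controls as 1 group, and 15 were higher under quantile normalization (24.6%, against 19.3%). Members with a lower effect in IRI than in rhabdomyolysis ranged from 3 to 6 with single libraries left out (5 without rhabdomyolysis mouse 1 and 6 without IRI mouse 4, of 3). Replicate numbers did not pair the samples: same-numbered deviations correlated between -0.112 and 0.176 for IRI and controls and between -0.207 and 0.325 for rhabdomyolysis and cisplatin, and 1 of 4 numbers matched best in each. With the replicate block 57 members were called in IRI and 47 between rhabdomyolysis and cisplatin, and Fabp4 (limma adjusted p = 0.0148) and Plin4 (0.0353) passed in IRI. Quantile normalization moved the median of all genes in cisplatin from 0.30 to 0.03 and in rhabdomyolysis from 0.31 to 0.14. A minimum mean of 5 CPM, which tests fewer genes, turned the medians to -0.03 and -0.38, and that of IRI from 0.08 to -0.06. A pseudocount of 0.1 CPM gave 0.37 and 0.39, and edgeR, which differs in model as well as scaling, gave 0.43 and 0.57. Depth limits Acot5, Fabp1, Cpt1c and Plin4, with few reads per control library.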
